A study of Mus musculus with 8 samples.

Results

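The genes described here encode the voltage-gated sodium and calcium channels of the mouse. They were taken from the deposited gene table as protein-coding genes whose symbol begins with Cacna, Cacnb or Cacng, or consists of Scn, digits and the letter a or b, which leaves out the Scnn genes of the epithelial sodium channel. The rule found 40 genes among 54532 in the table, 14 with Scn names and 26 with Cacn names. The tissue was labelled brain, and the series describes it as whole brain, from 3-month-old male mice with or without Nsun5 (wild type, WT, and knockout, KO), a methyltransferase that modifies a cytosine of ribosomal RNA. The question of the comparison is what loss of this enzyme does to transcripts and to their translation. There were 4 WT and 4 KO ribosome footprint libraries, that is, sequenced fragments that ribosomes shield from nuclease. The table also holds mRNA counts under the same 8 library names, and the labels do not describe these mRNA libraries further. The protocol names 5 mice of each genotype from the same litter and the labels tie no library to an animal, so the p-values below measure the spread between libraries. The labels do not describe the knockout allele.

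A voltage-gated sodium channel is built on a large pore-forming alpha subunit, which opens when the membrane depolarises and carries the rising phase of the action potential, and small beta subunits that tune its gating and hold it at the membrane. A voltage-gated calcium channel is built on a large alpha1 subunit, helped by an intracellular beta subunit and an extracellular alpha2delta subunit, and turns depolarisation into calcium entry that triggers transmitter release, gene regulation and rhythmic firing. Several proteins named as calcium channel gamma subunits serve mainly as TARPs, the transmembrane proteins that carry AMPA-type glutamate receptors to the synapse and slow their closing.

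The footprint libraries held 0.586 to 3.49 M counts assigned to genes (M, mega, a CPM being a count per M), including 0.233 to 1.47 M on genes that encode proteins. The mRNA libraries were deeper, with 15.6 to 17.8 M. The KO footprint libraries held 0.586 to 1.30 M and the WT footprint libraries 1.20 to 3.49 M. Nsun5 itself had 82 to 109 mRNA counts per WT library and 83 to 124 per KO library, or 0.12 ± 0.15 as log2 fold change and SE (edgeR adjusted p = 0.820). Its footprints numbered 0 to 11 per library. The counts of Nsun5 did not separate the groups as labelled, and each direction below is between the libraries labelled KO and those labelled WT. Markers of neurons and glia were present in all libraries. Of the cerebellum markers, Gabra6 had 34 mRNA counts and 0 footprint counts over all 8 libraries of each kind, and Pcp2 had 31 and 1. Cbln1 had 1972 and 108, and Calb1, which neurons outside the cerebellum also express, 24541 and 2055. Gabra6 and Pcp2 were thus nearly absent, and a single mRNA library held 30 of the Gabra6 counts. The brain levels below therefore describe libraries with almost no signal of these cerebellum markers, although the series describes whole brain. In bulk tissue, fewer cells of a type and less RNA per cell cannot be told apart.

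Of the 40 channel genes, 29 were measured well enough in mRNA to be tested (a mean of at least 1 RPKM, reads per kilobase of gene length and per M reads) and 28 in footprints (by edgeR's filter with a minimum count of 10). The change in translational efficiency, which is the footprint change relative to the mRNA change, was tested for 28. The 11 genes in none of these tests included the muscle sodium channel Scn4a, the sensory neuron channels Scn9a, Scn10a and Scn11a, the atypical Scn7a, the retinal and skeletal muscle calcium channels Cacna1f and Cacna1s, Cacna2d4, and the gamma subunits Cacng1 and Cacng6. Marker genes of muscle, sensory ganglia and retina had summed levels of at most 14.5, 4.36 and 1.29 CPM in any mRNA library. In footprint libraries the sums were 3.93 to 30.5 CPM for muscle, 0 to 3.84 CPM for sensory ganglia and 2.27 to 139 CPM for retina, the last highest in KO library 1, WT library 2 (58.9 CPM) and KO library 4 (43.2 CPM).

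Levels in WT brain differed widely between roles. Among the sodium channel beta subunits, Scn2b, which is joined to the alpha subunit by a disulphide bond, had 82.8 ± 7.83 RPKM in mRNA (mean ± SD, n = 4 WT libraries), Scn4b, whose protein takes part in resurgent current, 74.5 ± 38.8, and Scn3b 28.3 ± 4.87 RPKM. The Scn4b libraries ranged from 19.2 to 104 RPKM and overlapped the range of Scn2b, 72.8 to 89.3.

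Among the alpha subunits, Scn2a, the main subunit of excitatory neurons early in life and of unmyelinated axons, had 30.6 ± 2.75 RPKM in WT mRNA. Scn8a, which encodes the Nav1.6 channel of mature nodes of Ranvier and axon initial segments, had 16.7 ± 1.65, and Scn1a, the Nav1.1 channel on which fast-spiking interneurons depend, 15.9 ± 2.60. Scn3a, mostly a channel of the developing brain, had 4.75 ± 1.09 RPKM. The libraries of Scn8a (15.4 to 19.1) and Scn1a (12.4 to 18.8) overlapped, while Scn2a lay above both and Scn3a below. In footprints the order was the same, at 16.1 ± 2.58 RPKM for Scn2a, 12.2 ± 0.905 for Scn8a, 7.48 ± 0.414 for Scn1a and 2.11 ± 0.564 for Scn3a, and there Scn8a and Scn1a did not overlap (11.1 to 13.3 against 7.12 to 7.85 RPKM).

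The 3 calcium channel alpha1 subunits of presynaptic and dendritic high-voltage channels had similar mRNA, at 9.45 ± 1.76 RPKM for Cacna1a (P/Q-type, the main channel of fast transmitter release), 9.40 ± 0.220 for Cacna1b (N-type) and 7.85 ± 1.37 for Cacna1e (R-type), with overlapping ranges. Among the low-voltage T-type subunits, which drive burst firing of thalamic neurons, Cacna1i had 9.31 ± 2.43, Cacna1g 5.90 ± 0.597 and Cacna1h 4.56 ± 0.573 RPKM. The L-type subunits Cacna1c and Cacna1d, which couple calcium entry to gene regulation, had 3.22 ± 0.346 and 2.78 ± 0.0469 RPKM.

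The accessory subunits of calcium channels covered a wider range. Cacnb3 led the beta subunits at 48.7 ± 5.08 RPKM, before Cacnb1 (27.7 ± 3.86) and Cacnb4 (25.1 ± 3.38), whose ranges overlapped, and Cacnb2 (3.72 ± 0.345). Of the alpha2delta subunits, Cacna2d1, a target of the gabapentinoid drugs, had 19.4 ± 3.24, Cacna2d3 14.0 ± 1.57 and Cacna2d2 7.19 ± 1.29 RPKM. In the TARP group Cacng7 stood first at 66.9 ± 8.16 RPKM, followed by Cacng3 (32.0 ± 2.60), Cacng8 (27.0 ± 4.56), Cacng4 (16.0 ± 5.39), Cacng2, the stargazin gene (11.5 ± 1.50), and Cacng5 (5.03 ± 0.979). In footprints the TARP order began instead with Cacng8, the hippocampal and cortical TARP, at 48.3 ± 11.0 RPKM, while Cacng7 had 5.64 ± 0.535.

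**Figure D1:**
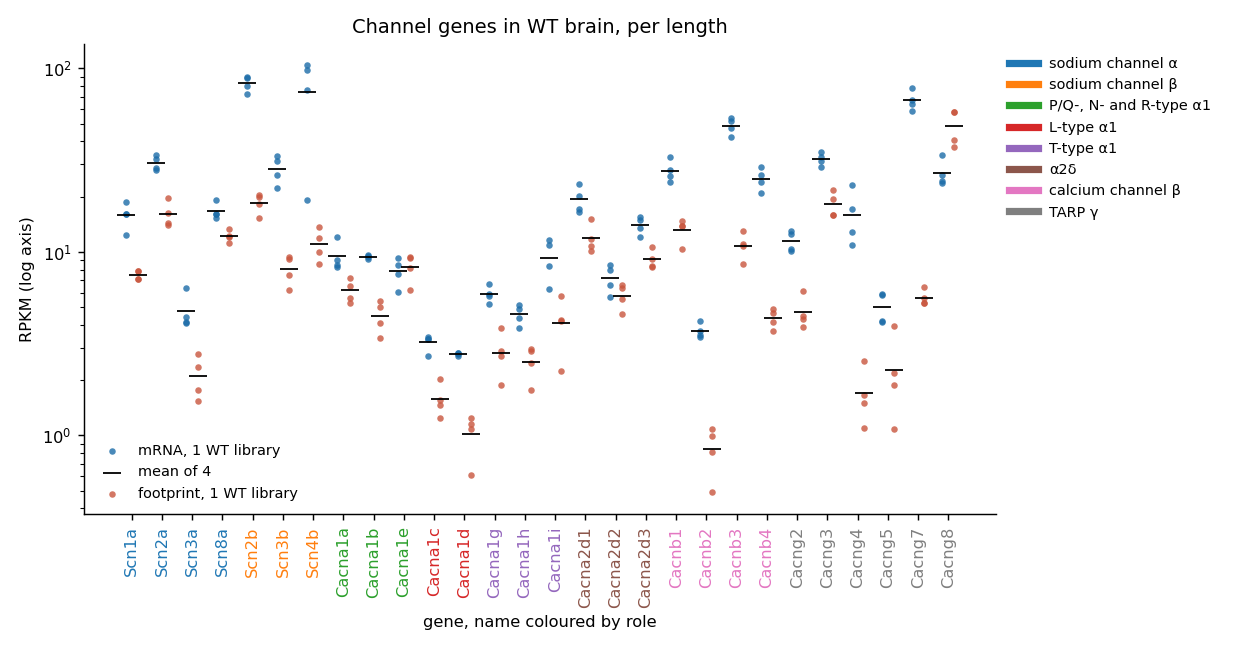
Levels of 28 tested channel genes in WT brain, in RPKM on a log axis. Each point is 1 WT library (4 of mRNA, 4 of footprints), the dash is their mean, and gene names are coloured by role; Cacng8 is the highest of those shown in footprints.

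The ratio of footprints to mRNA in WT differed within role groups. It was taken per gene as log2 of mean footprint RPKM over mean mRNA RPKM, minus the median of 9454 protein-coding genes, so that 0 marks a typical gene of this brain. The median of the 28 channel genes was 0.05, and 15 lay above 0 and 13 below. The sodium channel beta subunits Scn2b, Scn3b and Scn4b lay below 0, from −1.63 for Scn4b to −0.68 for Scn3b. The 3 measured alpha2delta subunits and the 3 subunits of P/Q-, N- and R-type channels lay above 0, with Cacna1e at 1.19 ± 0.19 (SE, n = 4 of each kind).

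The widest span was in the TARP group. Cacng8 had a centred log2 ratio of 1.96 ± 0.20, at percentile 99.0 of the protein-coding genes, and Cacng7, its neighbour on chromosome 7, one of −2.44 ± 0.11, at percentile 1.44. Cacng4 was also low, at −2.11 ± 0.34, while Cacng2 (−0.16 ± 0.17), Cacng5 (−0.02 ± 0.41) and Cacng3 (0.31 ± 0.13) were near 0. In KO libraries the ratio was 1.84 ± 0.10 for Cacng8 and −2.60 ± 0.27 for Cacng7, so that both ends of the order were the same genes in both genotypes. The other TARPs had −0.71 ± 0.48 (Cacng4), −0.96 ± 0.17 (Cacng2), 1.35 ± 0.68 (Cacng5) and −0.02 ± 0.18 (Cacng3) in KO libraries. The values of Cacng4 rest on 67 footprint counts over the WT libraries and 50 over the KO libraries. Among calcium channel beta subunits, Cacnb4 (−1.41 ± 0.13) and Cacnb3 (−1.05 ± 0.14) were low and Cacnb1 (0.05 ± 0.15) was not. Across the 28 genes the ratio had a Spearman rho of 0.418 with deposited gene length, as a description over genes that share the same libraries. The length counts whole genes with their untranslated parts, which footprints do not cover, and a miRNA gene, Gm23450, lies within the span of Cacng8 with 0 counts of its own. The part of gene length in these ratios was not tested.

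**Figure D2:**
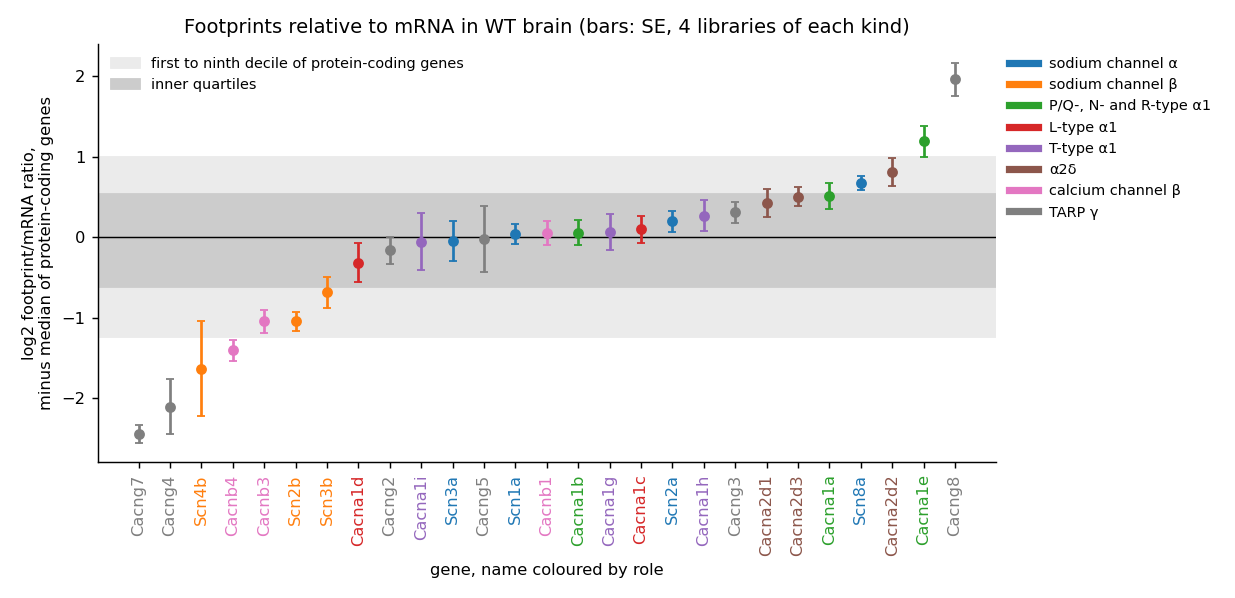
Footprint to mRNA ratio of 27 channel genes in WT brain, as log2 values centred on the median of 9454 protein-coding genes. Bars are SE over 4 libraries of each kind and the grey bands span the first to ninth deciles and the inner quartiles of protein-coding genes; Cacng7 is lowest (−2.44) and Cacng8 highest (1.96).

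In mRNA, the channel genes had mostly small positive differences in KO. Of 29 tested, 20 had a log2 fold change above 0, where 48.6% of all 13058 tested genes did, and the median was 0.09, where that of all genes was −0.01. The 29 genes share the same libraries and can vary together between them. Such counts and medians, here and in the comparisons below, are descriptions without a test. The estimates nearest to the threshold were those of Scn8a, Scn1a and Cacnb4, at 1.25-, 1.41- and 1.25-fold in KO. edgeR called 0 of 29 at a Benjamini-Hochberg adjusted p under 0.05, and 0 of all genes (percent called 0). At an unadjusted p under 0.05 there were 6 of 29 (all genes, 10.5%), 5 higher in KO (all genes, 5.32%) and 1 lower (5.22%). DESeq2 called 1, Scn8a, with an adjusted p of 0.0282, where it called 0.666% of all genes. The groups did not overlap for 2 of 29, Scn8a and Cacnb4 (all genes, 5.59%), both higher in KO (2.85%), and for 0 of 29 in the other direction (2.74%).

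Values by library are given in the order 1 to 4 throughout. Scn8a (ENSMUSG00000023033, chromosome 15, 100869858 to 101045938, plus strand of mm10) had 259, 247, 308 and 259 CPM in the WT libraries and 346, 319, 351 and 323 CPM in the KO libraries. All KO libraries lay above all WT libraries, with WT library 3 nearest to them. Its log2 fold change came to 0.32 ± 0.08 (estimate ± SE, 4 libraries per group, 95% interval 0.14 to 0.49), and the adjusted p from edgeR was 0.337. Leaving out each library in turn gave 0.28 to 0.39, and the value of Scn8a without WT libraries 1 and 2 is not given here. Scn1a (ENSMUSG00000064329, chromosome 2, 66270778 to 66440840, minus strand) had 183, 141, 214 and 183 CPM in the WT libraries and 237, 312, 213 and 254 CPM in the KO libraries. The groups touched only where WT library 3 exceeded KO library 3, and WT library 2 was the lowest. Its log2 fold change was 0.49 ± 0.14 (edgeR adjusted p = 0.337) and 0.36 without WT libraries 1 and 2, the WT libraries with the lowest cerebral cortex markers in mRNA (mean log2 CPM of 6.23 and 5.96). Scn2a and Scn3a had log2 fold changes of 0.09 ± 0.09 and −0.23 ± 0.16.

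Among the sodium channel beta subunits, Scn2b had a log2 fold change of 0.09 ± 0.07 in mRNA and Scn3b −0.29 ± 0.16. The value of Scn4b was 0.09 ± 0.45, the widest error of the 29.

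Among the alpha1 subunits, Cacna1g (ENSMUSG00000020866, chromosome 11, 94408391 to 94474198, minus strand), a T-type channel of thalamic and cortical neurons, had 60.0, 54.1, 61.4 and 68.7 CPM in the WT libraries and 66.4, 82.4, 75.0 and 63.5 CPM in the KO libraries. KO libraries 2 and 3 were the highest and the other KO libraries lay within the WT range. The log2 fold change was 0.23 ± 0.10 (edgeR adjusted p = 0.459). Cacna1i (ENSMUSG00000022416, chromosome 15, 80287238 to 80398279, plus strand), the T-type channel best known from the reticular nucleus of the thalamus, had 63.6, 84.8, 117 and 109.8 CPM in the WT libraries and 118, 128, 114 and 109 CPM in the KO libraries. WT libraries 1 and 2 were low and the rest were alike. Its log2 fold change was 0.32 ± 0.16 with all libraries and 0.05 without WT libraries 1 and 2. Without those libraries Cacna1g had 0.14. Cacna1h had −0.22 ± 0.14.

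Cacna1a (ENSMUSG00000034656, chromosome 8, 84388440 to 84640246, plus strand), the P/Q-type subunit, had 99.5, 96.0, 141 and 104 CPM in the WT libraries and 135, 129, 129.6 and 124 CPM in the KO libraries. WT library 3 exceeded every KO library and the other WT libraries lay below all of them, and the fold change on the log2 scale was 0.23 ± 0.11 (edgeR adjusted p = 0.493). Cacna1d (ENSMUSG00000015968, chromosome 14, 30039939 to 30491455, minus strand), an L-type subunit that opens near resting potential, had 35.9, 36.3, 36.2 and 34.7 CPM in the WT libraries and 38.2, 34.4, 46.2 and 36.1 CPM in the KO libraries. The groups overlapped, and KO library 3 was the highest of all. The log2 fold change was 0.11 ± 0.09. For Cacna1b, Cacna1e and Cacna1c it was 0.10 ± 0.06, −0.07 ± 0.16 and 0.01 ± 0.10. On the opposite strand, Dcp1a (3362 mRNA counts over all libraries) and Chdh (831) lie in the span of Cacna1d (4926), and Dcp1b (1523) in that of Cacna1c (9234). Whether counting used strand is not given in the sources used here, so the values of Cacna1c and Cacna1d are uncertain to that extent.

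The calcium channel beta subunits held both directions. Cacnb4 (ENSMUSG00000017412, chromosome 2, 52428320 to 52676831, minus strand), the beta subunit of cerebellar and forebrain P/Q- and N-type channels, had 193, 220.3, 266 and 240.1 CPM in the WT libraries and 312, 293, 279 and 269 CPM in the KO libraries. The lowest KO library and the highest WT library were close, and the groups did not overlap. The log2 fold change was 0.33 ± 0.10 (edgeR adjusted p = 0.337), and 0.19 without WT libraries 1 and 2. Cacnb3 (ENSMUSG00000003352, chromosome 15, 98630840 to 98644529, plus strand), a beta subunit of N- and L-type channels, had 194, 173, 213 and 218 CPM in the WT libraries and 253, 213, 233 and 215 CPM in the KO libraries. KO libraries 1 and 3 were the highest of the 8, and the others overlapped (0.20 ± 0.09, edgeR adjusted p = 0.474). Cacnb2 (ENSMUSG00000057914, chromosome 2, 14603088 to 14987908, plus strand), which also serves the L-type channel of the heart, had 50.5, 56.7, 46.3 and 47.5 CPM in the WT libraries and 41.8, 40.5, 44.7 and 48.0 CPM in the KO libraries. KO libraries 1, 2 and 3 lay below all WT libraries, and KO library 4 lay among them. This gave the 1 negative value with an unadjusted p under 0.05, −0.20 ± 0.09 (edgeR adjusted p = 0.461). Without WT libraries 1 and 2 the value of Cacnb3 was 0.08 and that of Cacnb2 −0.10. Cacnb1 had 0.06 ± 0.10.

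Of the alpha2delta subunits, Cacna2d2 (ENSMUSG00000010066, chromosome 9, 107399612 to 107529343, plus strand) had the largest negative estimate of the 29, −0.44 ± 0.22 (edgeR adjusted p = 0.505). Its levels were 46.3, 64.8, 53.6 and 68.6 CPM in the WT libraries and 34.8, 47.5, 27.9 and 61.3 CPM in the KO libraries. KO libraries 1 and 3 were the lowest, and the groups overlapped. Cacna2d1 and Cacna2d3 had 0.12 ± 0.11 and 0.09 ± 0.09.

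In the TARP group, Cacng2 (ENSMUSG00000019146, chromosome 15, 77991748 to 78120028, minus strand), the stargazin gene whose loss causes ataxia and absence seizures in mice, had 57.1, 58.1, 70.7 and 73.0 CPM in the WT libraries and 78.5, 83.5, 68.8 and 73.3 CPM in the KO libraries. WT libraries 1 and 2 were the lowest, and WT libraries 3 and 4 lay within the KO range. The log2 fold change was 0.23 ± 0.10 (edgeR adjusted p = 0.459), and 0.08 without WT libraries 1 and 2. Cacng4 (ENSMUSG00000020723, chromosome 11, 107732357 to 107794557, minus strand), a TARP found in glia as well as neurons, had 40.0, 84.1, 46.8 and 62.2 CPM in the WT libraries and 43.9, 40.8, 32.9 and 69.7 CPM in the KO libraries. Its neighbour Cacng5 (ENSMUSG00000040373, chromosome 11, 107874605 to 107915055, minus strand) had 16.4, 23.1, 22.9 and 16.2 CPM in the WT libraries and 13.5, 14.2, 10.8 and 22.7 CPM in the KO libraries. The groups overlapped for both genes, and KO library 4 was the highest KO library of both. The log2 fold changes were −0.31 ± 0.26 for Cacng4 and −0.36 ± 0.22 for Cacng5. Cacng3, Cacng7 and Cacng8 had 0.11 ± 0.08, 0.14 ± 0.09 and −0.06 ± 0.12.

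Marker genes of brain regions and cell types moved with this comparison. The mean log2 CPM of 5 cerebral cortex markers in mRNA was 6.28 ± 0.24 over WT libraries and 6.82 ± 0.16 over KO libraries (SD, n = 4), with KO library 4 at 6.58 and the highest WT library at 6.53. Their summed level ranged from 605 to 822 CPM in WT and from 812 to 1044 CPM in KO. The 6 excitatory neuron markers were at 6.81 ± 0.15 and 7.12 ± 0.11, with summed levels of 1185 to 1487 and 1514 to 1916 CPM, and the 6 oligodendrocyte markers at 9.10 ± 0.05 and 8.65 ± 0.24, with summed levels of 6553 to 7100 and 4232 to 5771 CPM. In mean log2 CPM none of these 3 lists overlapped between groups, while the summed cortex levels did, and none of the lists had a marker at 0. The part of tissue composition in the channel values was not tested.

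**Figure D3:**
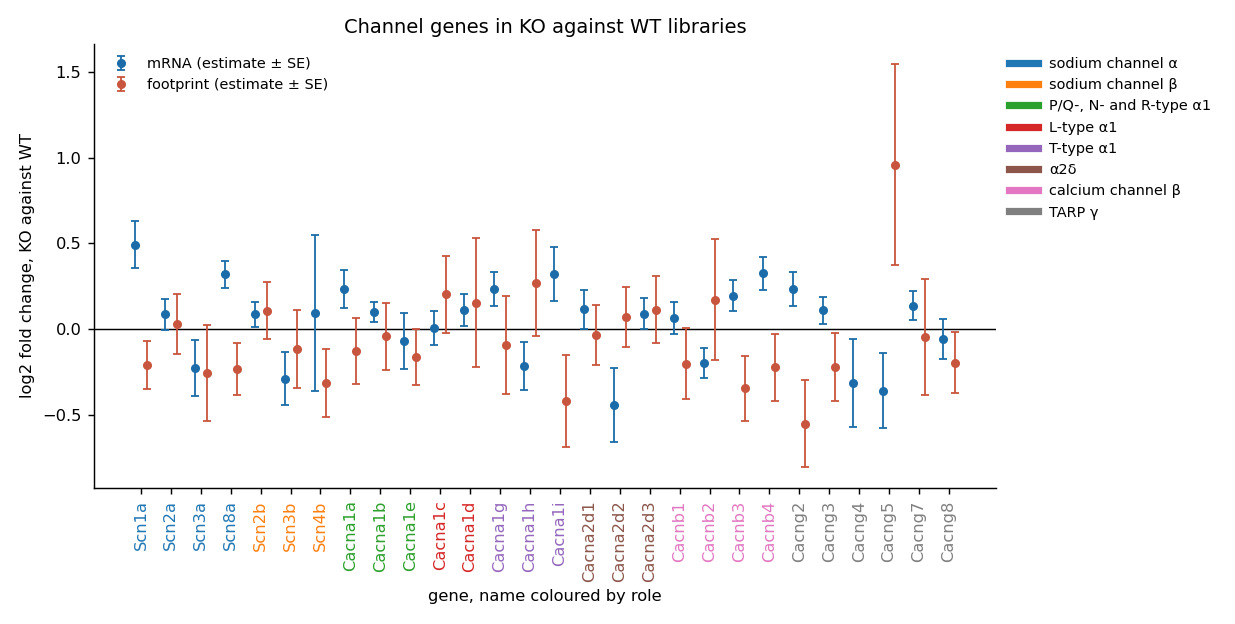
log2 fold change of KO against WT for 28 channel genes in mRNA (blue) and 27 in footprints (red), with SE from edgeR (4 libraries per group and kind). Gene names are coloured by role. For 14 of the 27 genes shown with both values, mRNA lies above 0 and footprints below.

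In footprints, the differences of the channel genes were mostly negative in KO. Of 28 tested, 9 had a log2 fold change above 0, where 49.6% of all 8476 tested genes did, and the median was −0.12, where that of all genes was −0.0038. Cacng2 had the lowest p, at 0.681-fold in KO. edgeR called 0 of 28 at an adjusted p under 0.05 and 0 of all genes (percent called 0), and DESeq2 called 0 of 28 (all genes, 0.0472%). At an unadjusted p under 0.05 there was 1 of 28, Cacng2, lower in KO (all genes, 5.52% in either direction, 2.64% lower and 2.88% higher in KO). The groups did not overlap for 2 of 28, Scn1a and Cacng2 (all genes, 3.61%), both lower in KO (2.04%), and for 0 in the other direction (1.57%). Without WT libraries 1 and 2 the median of the 28 was 0.0044, with 14 above 0, so the sign of the median rests on those libraries. Without KO library 4 it was −0.05.

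Cacng2 had 24.9, 35.4, 26.0 and 22.6 CPM in the WT libraries and 18.3, 18.5, 13.5 and 22.6 CPM in the KO libraries. The values of WT library 4 and KO library 4 were nearly equal, and the other KO libraries lay clearly below the WT group. Its log2 fold change was −0.55 ± 0.25 (95% interval −1.10 to −0.01, edgeR adjusted p = 0.881), and −0.39 without WT libraries 1 and 2. These values rest on 7 to 114 counts per library, and KO library 3 had the 7. An antisense gene in its span, A730060N03Rik, had 22 footprint counts over all libraries against 369 for Cacng2.

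Scn1a had 83.3, 91.5, 83.4 and 91.6 CPM in the WT libraries and 75.7, 82.9, 75.0 and 67.7 CPM in the KO libraries. KO library 2 was just under the lowest WT library and KO library 4 was the lowest of all, and the log2 value was −0.21 ± 0.14 (edgeR adjusted p = 0.881). Scn8a had 184, 219.9, 203 and 199.7 CPM in the WT libraries and 154, 205, 159.5 and 165 CPM in the KO libraries. KO library 2 lay within the WT range and the other KO libraries below it (−0.24 ± 0.15, edgeR adjusted p = 0.881). The other alpha subunits had 0.03 ± 0.17 (Scn2a) and −0.26 ± 0.28 (Scn3a). Of the beta subunits, Scn2b, Scn3b and Scn4b had 0.11 ± 0.16, −0.12 ± 0.23 and −0.31 ± 0.20.

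Cacnb4 had 39.1, 43.7, 34.8 and 46.0 CPM in the WT libraries and 29.3, 35.4, 30.8 and 43.2 CPM in the KO libraries. KO library 4 lay in the upper part of the WT range and WT library 3 in the KO range (−0.22 ± 0.19, edgeR adjusted p = 0.924). Cacnb3 had 54.4, 45.3, 46.5 and 36.2 CPM in the WT libraries and 31.8, 38.0, 40.4 and 33.4 CPM in the KO libraries. WT library 4 was among the KO values and the other WT libraries lay above them (−0.34 ± 0.19, edgeR adjusted p = 0.881). Cacnb2 had only 5 to 44 counts per library, at 6.80, 13.6, 15.0 and 11.3 CPM in the WT libraries and 11.0, 16.9, 9.61 and 13.7 CPM in the KO libraries. Its groups overlapped, with a value of 0.17 ± 0.35, and a pseudogene on the same strand in its span, Gm13312, had 34 footprint counts over all libraries against 187 for Cacnb2. Cacnb1 had −0.20 ± 0.20.

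Cacna1i had 23.2, 44.0, 43.6 and 59.5 CPM in the WT libraries and 29.3, 36.9, 36.5 and 25.5 CPM in the KO libraries. WT library 1 was the lowest of all and the other WT libraries were the highest, with a log2 fold change of −0.42 ± 0.27 and of −0.68 without WT libraries 1 and 2 (edgeR unadjusted p = 0.0207, adjusted p = 0.884). Cacna1g had 28.9, 40.6, 30.7 and 20.0 CPM in the WT libraries and 34.2, 28.5, 13.5 and 33.4 CPM in the KO libraries, with KO library 3 the lowest at 7 counts (−0.09 ± 0.28). Cacna1a had 86.7, 77.8, 63.3 and 67.5 CPM in the WT libraries and 90.4, 70.2, 59.6 and 49.1 CPM in the KO libraries, in overlapping groups (−0.13 ± 0.19). Cacna1d had 15.3, 14.3, 8.05 and 16.6 CPM in the WT libraries and 25.7, 11.1, 11.5 and 12.8 CPM in the KO libraries. KO library 1 stood far above the other libraries, which overlapped (0.15 ± 0.38). The remaining alpha1 subunits had −0.04 ± 0.20 (Cacna1b), −0.16 ± 0.16 (Cacna1e), 0.20 ± 0.22 (Cacna1c) and 0.27 ± 0.31 (Cacna1h).

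Cacna2d2 had 46.4, 54.9, 38.4 and 53.1 CPM in the WT libraries and 47.6, 55.9, 50.0 and 48.1 CPM in the KO libraries, with overlapping groups (0.07 ± 0.17), and Cacna2d1 and Cacna2d3 had −0.04 ± 0.17 and 0.11 ± 0.20. Cacng4 was not in the footprint test, with 5.66, 6.20, 9.52 and 4.15 CPM in the WT libraries and 11.0, 11.6, 25.0 and 5.89 CPM in the KO libraries from 6 to 26 counts per library. KO libraries 1, 2 and 3 lay above all WT libraries. Cacng5 had 15.9, 4.34, 8.78 and 7.54 CPM in the WT libraries and 41.5, 4.75, 13.5 and 12.8 CPM in the KO libraries, from 7 to 34 counts. KO library 1 was more than any other library, and KO library 2 was near the lowest. Its estimate was the largest of the 28 and the least precise, 0.96 ± 0.59 (edgeR adjusted p = 0.881). Cacng3, Cacng7 and Cacng8 had −0.22 ± 0.20, −0.05 ± 0.34 and −0.20 ± 0.18.

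In footprints the same cerebral cortex markers were lower in KO, with mean log2 CPM of 5.83 ± 0.04 and 5.46 ± 0.17 for WT and KO (SD, n = 4), with no overlap and with summed levels of 636 to 898 and 481 to 619 CPM. Oligodendrocyte markers stood at 7.33 ± 0.11 and 6.88 ± 0.17, with summed levels of 1990 to 2375 and 1418 to 1773 CPM and again no overlap. Excitatory neuron markers overlapped, at 5.67 ± 0.09 and 5.48 ± 0.27. Footprint depth also differed between the groups, as given above. The part of composition and depth in the channel footprints was not tested.

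**Figure D4:**
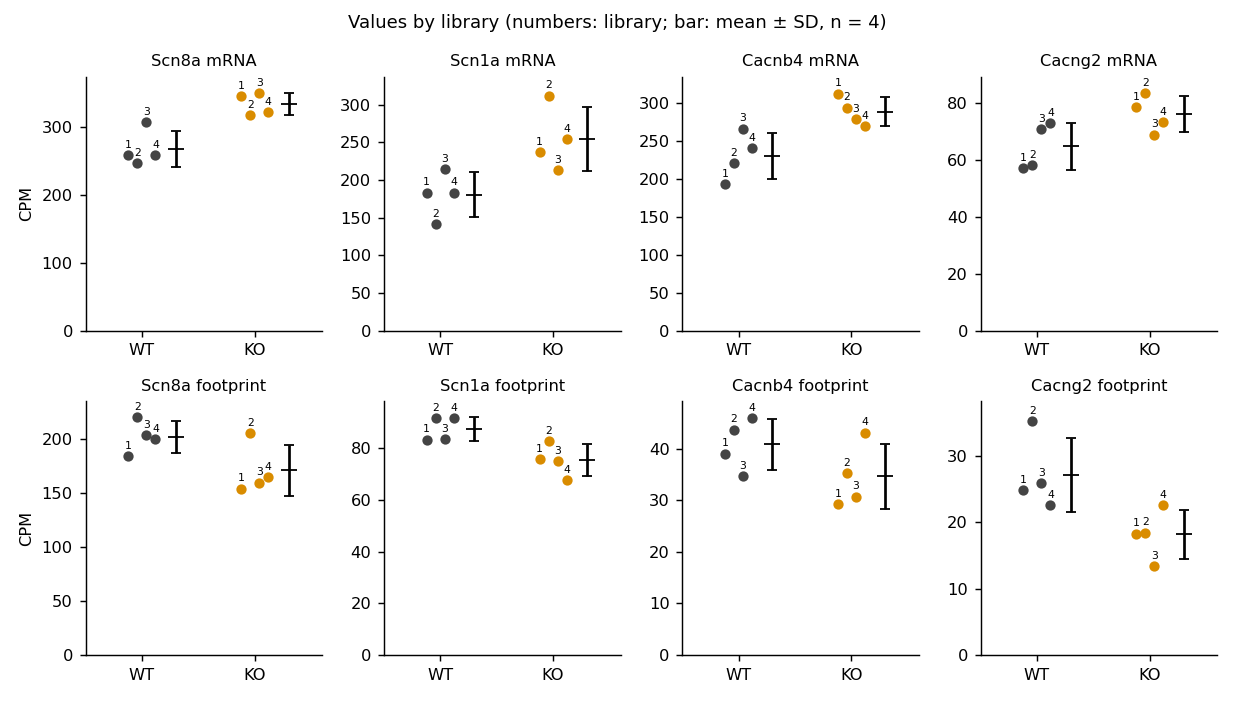
CPM by library for Scn8a, Scn1a, Cacnb4 and Cacng2, with mRNA in the upper row and footprints in the lower row. Numbers mark the libraries 1 to 4, the bar is mean ± SD (n = 4) and every axis starts at 0. The KO mean sits higher in mRNA and lower in footprints. The points do not overlap for Scn8a and Cacnb4 in mRNA and, narrowly, for Scn1a and Cacng2 in footprints, and overlap in the other panels. All 4 genes had an unadjusted edgeR p under 0.05 in translational efficiency.

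Set against mRNA, footprint estimates of several sodium and calcium channel genes lay lower in KO. For 15 of the 28 genes with both values, mRNA had a positive and footprints a negative estimate, where 28.5% of 8123 genes did, and for 4 of 28 the reverse held, where 24.8% did. The translational efficiency estimate was above 0 for 9 of 28 (all 9673 tested genes, 49.8%), with a median of −0.13 (all genes, −0.0027). edgeR called 0 of 28 and 0 of all genes (percent called 0) at an adjusted p under 0.05. At an unadjusted p under 0.05 there were 8 of 28 (all genes, 10.9%). In 6 of these, Scn1a, Scn8a, Cacng2, Cacnb3, Cacnb4 and Cacna1i, the estimate was negative (all genes, 5.67%), and in 2, Cacng4 and Cacng5, positive (5.21%). DESeq2 called 1 of 28, Scn8a (all genes, 1.55%). The cerebral cortex markers also went in opposite directions, higher in KO in mRNA and lower in footprints, without overlap in mean log2 CPM. Oligodendrocyte markers were lower in KO in both kinds. The 4 hypothalamus markers summed to 0.228 to 8.01 CPM in KO mRNA and 51.9 to 104 CPM in KO footprints. In WT they summed to 1.03 to 110 and 2.48 to 53.2 CPM. The part of tissue composition in the translational efficiency values was not tested.

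The change of Scn8a was −0.54 ± 0.15 (log2, SE, 4 libraries per group and kind, edgeR adjusted p = 0.213), with a 95% interval of −0.85 to −0.22, or 0.690-fold. DESeq2 gave −0.51 with an adjusted p of 0.0296. Scn1a had −0.69 ± 0.20 (edgeR adjusted p = 0.213, interval −1.10 to −0.28). All 4 measured sodium channel alpha subunits had negative estimates, Scn2a with −0.03 ± 0.18 and Scn3a with −0.05 ± 0.32, both within their error of 0. Leaving out each library in turn gave −0.66 to −0.46 for Scn8a. Of the beta subunits, Scn2b had 0.02 ± 0.17, Scn3b 0.22 ± 0.28 and Scn4b −0.41 ± 0.55.

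Cacng2 had the most negative estimate of the 28, −0.78 ± 0.25 (edgeR adjusted p = 0.263), followed by Cacna1i with −0.74 ± 0.31 (0.399 by the same test). The 3 measured calcium channel beta subunits were all negative, Cacnb4 with −0.53 ± 0.20, Cacnb3 with −0.52 ± 0.19 and Cacnb1 with −0.25 ± 0.21. Cacnb2 was left out here because its footprints averaged under 1 RPKM. Without WT libraries 1 and 2, Cacng2 had −0.45, Cacnb3 −0.29, Cacnb4 −0.38 and Cacna1i −0.72. Leaving out 1 library at a time gave −0.92 to −0.56 for Cacng2 and −0.66 to −0.43 for Cacnb3. For Cacnb4 it gave −0.69 to −0.43 and for Cacna1i −0.86 to −0.63. Among the other alpha1 subunits, Cacna1a had −0.34 ± 0.22, Cacna1b −0.12 ± 0.19, Cacna1e −0.08 ± 0.22, Cacna1g −0.31 ± 0.28, Cacna1h 0.43 ± 0.33, Cacna1c 0.17 ± 0.24 and Cacna1d 0.02 ± 0.33.

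The positive estimates with an unadjusted p under 0.05 were those of the chromosome 11 neighbours Cacng4 and Cacng5, 1.21 ± 0.54 and 1.29 ± 0.60 (edgeR adjusted p = 0.419 and 0.443). The value of Cacng5 rested largely on KO library 1 and was 0.36 without it. For Cacng4 it was 0.80 without KO library 3. Cacna2d2 had 0.53 ± 0.29, Cacna2d1 −0.13 ± 0.20 and Cacna2d3 0.04 ± 0.21, and the other TARPs −0.30 ± 0.20 (Cacng3), −0.20 ± 0.26 (Cacng7) and −0.14 ± 0.21 (Cacng8).

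The start of transcription of the members with an unadjusted p under 0.05 in any comparison is shown where the RefSeq promoter table (GRCm38.p6) gives a window of which at most 30 bases lie inside a gene's span. That holds for 3 of the 10 such members, Scn1a, Cacna1i and Cacng5, and 2 of the other 7 have no window in the table. Each line gives the 250 bases before the start on the gene's own strand, 5′ to 3′, at chr2:66440838-66441087 (minus strand) for Scn1a, chr15:80286988-80287237 (plus strand) for Cacna1i and chr11:107915056-107915305 (minus strand) for Cacng5. Capitals mark matches to the CCAAT box (CCAAT or ATTGG) or the GC box (GGGCGG or CCGCCC), short motifs common near mammalian start sites.
Scn1a: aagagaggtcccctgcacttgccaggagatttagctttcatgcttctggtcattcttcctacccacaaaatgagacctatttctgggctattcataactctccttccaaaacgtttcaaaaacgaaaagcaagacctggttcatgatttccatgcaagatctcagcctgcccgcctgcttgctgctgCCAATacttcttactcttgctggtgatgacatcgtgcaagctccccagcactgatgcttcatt
Cacna1i: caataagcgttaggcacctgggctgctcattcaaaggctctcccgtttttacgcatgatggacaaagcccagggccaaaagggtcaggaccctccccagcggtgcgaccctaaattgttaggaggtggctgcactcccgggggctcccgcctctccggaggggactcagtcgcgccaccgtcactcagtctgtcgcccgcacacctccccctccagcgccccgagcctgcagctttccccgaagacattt
Cacng5: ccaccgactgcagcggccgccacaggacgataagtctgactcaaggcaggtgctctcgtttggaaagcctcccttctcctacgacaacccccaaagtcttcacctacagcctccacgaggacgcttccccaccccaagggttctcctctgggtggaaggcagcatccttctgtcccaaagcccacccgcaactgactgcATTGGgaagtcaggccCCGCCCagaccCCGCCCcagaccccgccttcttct
The Scn1a window held 1 CCAAT match and 46.8% G and C bases, the Cacna1i window none of the motifs searched and 62.4%, and the Cacng5 window 1 CCAAT and 2 GC box matches and 62.0%. Over the 32536 distinct windows of the table (the same 250 bases before the start, both strands searched), 33.8% held CCAAT, 33.0% GGGCGG, 12.3% the TATA motif TATAAA, 6.04% the E-box CACGTG and 1.56% the cyclic AMP response element TGACGTCA. Of the 41 windows of 30 channel genes, 10 held CCAAT, 15 GGGCGG, 2 TATAAA and 0 either of the others. A match is a run of letters and was not tested for binding.

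The channel genes work with partners and transporters that were listed separately, and both edgeR and DESeq2 called 0 genes of these lists in any comparison. Of 25 proteins that bind, anchor or modulate the channels, 21 were tested in mRNA, with 3 higher in KO at an unadjusted p under 0.05 (all genes, 5.32%), 0 lower (5.22%) and a median of 0.08 (all genes, −0.01). Those higher included Stac2, an L-type channel regulator (0.55 ± 0.20), and Rims1, which tethers channels to release sites (0.20 ± 0.09). In footprints 0 of 19 had such a p (all genes, 5.52%; list median −0.05). In translational efficiency 1 of 20 was higher (all genes, 5.21%), Cachd1, an alpha2delta-like protein, at 0.86 ± 0.38, and 1 was lower (5.67%), with a list median of −0.07.

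The list of calcium and sodium transport held pumps and exchangers, which restore the gradients that these channels spend, and calcium release channels. Of its tested genes 13 of 16 were above 0 in mRNA (all genes, 48.6%; list median 0.10), 5 of 16 in footprints (49.6%; −0.13) and 3 of 15 in translational efficiency (49.8%; −0.18). In translational efficiency, 4 of 15 were lower in KO at an unadjusted p under 0.05 (all genes, 5.67%) and 0 higher (5.21%). They included Atp2b2, a plasma membrane calcium pump (−0.62 ± 0.20), Slc8a2, a sodium-calcium exchanger (−0.51 ± 0.20), and Ryr2, a calcium release channel (−0.41 ± 0.20). In mRNA 1 of 16 had such a p, higher in KO (all genes, 5.32%), and in footprints 1 of 16, Slc8a2 (−0.36 ± 0.16), lower in KO (2.64%).

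Of NALCN and related cation channels, 9 of 14 were tested in mRNA, and 2 were lower at an unadjusted p under 0.05 (all genes, 5.22%), the pacemaker channels Hcn3 (−0.37 ± 0.13) and Hcn4 (−0.43 ± 0.19), with a list median of 0.09. In footprints Hcn2 was the 1 of 7 with such a p (0.46 ± 0.21, higher in KO; all genes, 2.88%; list median 0.18), and in translational efficiency there was 0 of 7 (all genes, 10.9%; list median 0.14). Of 11 AMPA receptor subunits and auxiliary proteins, which the TARPs serve, Gria1 was the 1 with such a p in mRNA (−0.28 ± 0.11, lower in KO; all genes, 5.22%; list median 0.02). There was 0 of 10 in footprints (all genes, 5.52%; list median −0.09) and 0 of 11 in translational efficiency (10.9%; 0.04).

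Of the members, Scn4b varied most in mRNA between libraries of the same group. Its mRNA was 98.2, 529, 389 and 499 CPM in the WT libraries and 449, 339, 202 and 627 CPM in the KO libraries. WT library 1 was the lowest and KO library 3 the next, and the groups overlapped throughout. The mean log2 CPM of 4 striatum markers was also lowest in these libraries, at 4.62 and 4.92, and lay between 5.81 and 7.12 in the others. The summed level of these markers ranged from 137 to 751 CPM in WT and from 198 to 718 CPM in KO, and none was at 0. In footprints Scn4b had 44.8, 52.1, 62.2 and 71.2 CPM in the WT libraries and 51.3, 45.9, 55.7 and 35.3 CPM in the KO libraries, and the striatum mean ranged from 4.40 to 4.71 in WT and from 4.50 to 5.23 in KO. WT library 1 was again the lowest of the WT group, but by far less than in mRNA. The KO order of Scn4b differed, with KO library 3 the highest KO library in footprints. That library had the lowest striatum mean of the KO footprint libraries (4.50), and KO library 1 the highest (5.23). KO library 4, the highest of all for Scn4b in mRNA, was the lowest of all for Scn4b in footprints. The part of striatal content in the Scn4b values was not tested.

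**Figure D5:**
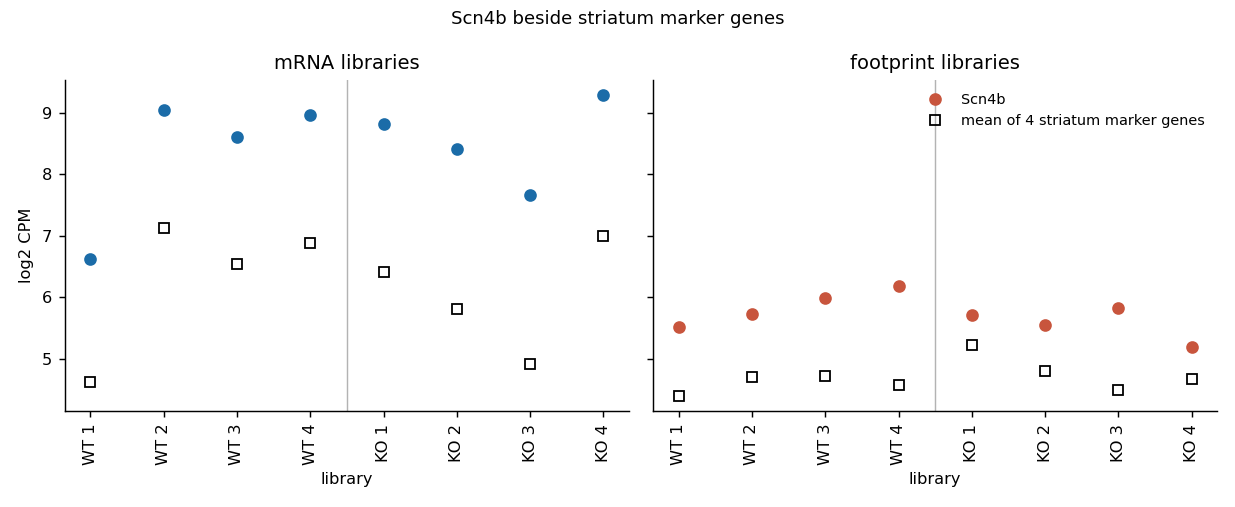
log2 CPM of Scn4b (filled circles) and the mean of 4 striatum marker genes (open squares) in each library, mRNA on the left and footprints on the right. Both are lowest in WT library 1 and KO library 3 in mRNA, and the footprint values span a narrower range.

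Most genes outside the tests were close to the floor of detection. Scn4a had 6 mRNA counts over 8 libraries and 0 footprint counts, Cacna1f 23 and 2, Scn11a 39 and 5, Cacng1 52 and 5, Scn10a 56 and 14, Cacna1s 95 and 2, and Cacng6 130 and 3. Cacna2d4 had 411 mRNA and 27 footprint counts, in a span that also holds Lrtm2 on the opposite strand, with 9898 and 522. Scn9a, the Nav1.7 channel of pain fibres, had 687 mRNA counts beside 493 of an antisense gene in its span, Gm13629. Scn7a had 806 mRNA and 86 footprint counts.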

How the data were processed

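Ribosome footprints and mRNA of mouse brain were compared between 4 WT and 4 KO libraries of each kind. The submitters' processing notes name TopHat2 and mm10; the counting program, the annotation release and the use of strand are not given in the sources used here. The deposited table holds raw counts per gene, whole numbers that differ in total between libraries, and 2 further deposited tables hold RPKM that the authors made from these counts and the gene length, one for each kind of library. Levels per library are CPM on the TMM library size.

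KO was set against WT with edgeR 4.0.16 (TMM, quasi-likelihood test, R 4.3.3). Footprint genes were kept by filterByExpr (minimum count 10), mRNA genes at a mean of at least 1 RPKM, and genes for translational efficiency, the interaction of genotype and library kind, at that mean in both kinds. Benjamini-Hochberg adjustment ran over all genes tested, with a threshold of 0.05. Positive log2 fold changes mean a higher level in KO. The log2 fold changes are edgeR's, computed here from the deposited counts. Cell type marker and gene list levels are mean log2 CPM with a prior count of 2. The fits were tested on simulated data with planted changes larger than any member estimate of the main fits. That test does not bear on smaller changes.

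Some genes are not reported here, though counts of genes include them. Of the others every member is named; values in every library are given for members with an unadjusted p under 0.05 in a comparison or the lowest p of their role group, and up to 4 genes of each list are named by lowest p. Scn4b and members with a low count were added after their values were seen. The members, the lists and the alternatives were chosen with earlier results of these data known. Alternatives were DESeq2 1.42.0, other library scalings and filters, protein-coding genes only, and limma 3.58.1 on RPKM in log2 form (pseudocount 0.1 or 1). Others were leaving out libraries and a block on replicate number, or on library name for translational efficiency. Promoter windows come from RefSeq (GRCm38.p6). How reads matching several genes were counted is not given in the sources used here, which bears on the related alpha subunit genes. Overlapping genes are named where they hold at least 10% of a member's counts of either kind; most of the smaller ones, antisense genes among them, are not.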

Additional observations from a re-analysis of the deposited data

Results flagged for a closer look

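In 4 of 114 groups of 4 libraries, 1 library lay far from the other 3 by Dixon's ratio of gap to range (critical value 0.829), where chance alone marks about 1 in 20 groups. Cacna1c mRNA was 58.2 CPM in WT library 4 and 72.2 to 75.0 CPM in the other WT libraries. Scn3a mRNA was 81.1 CPM in WT library 2 and 52.2 to 56.1 CPM in the others. In footprints, KO library 1 stood high for Cacna1d, at 25.7 CPM beside 11.1 to 12.8 CPM, and for Cacng7, at 23.2 CPM beside 10.8 to 11.5 CPM.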

How the results depend on the processing

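The main edgeR fits called 0 genes in each comparison. In mRNA, 87 genes were called by DESeq2 (1 of them a member, Scn8a) and 24 with no filter on low counts, and 0 to 2 when each library was left out in turn. In footprints, 4 genes were called by DESeq2, 3 with library totals, 86 with no filter, 3 with protein-coding genes only and 0 when each library was left out. In translational efficiency, 150 were called by DESeq2 (1 of them a member, Scn8a, at −0.51), 2 with no filter and 0 to 4 when each library was left out. The footprint median of the members was −0.31 with library totals, where the median of all genes was −0.15, then with 4 members above 0. It was 0.0044 without WT libraries 1 and 2, with 14 above 0, and −0.18 to −0.048 over the libraries left out, with 6 to 12 above 0. With no filter, 16 of 39 members were above 0 in footprints and 15 of 39 in translational efficiency. The cause of these differences was not tested. Leaving out libraries gave medians of 0.07 to 0.14 in mRNA (18 to 21 members above 0) and −0.24 to −0.10 in translational efficiency (6 to 11 above 0), and 0 members called. Over all alternatives the sign changed in 13 of 522 values in mRNA, 34 of 503 in footprints and 31 of 503 in translational efficiency, none of a member with a main p under 0.266. A block was the replicate number in mRNA and in footprints, and in translational efficiency the name shared by a footprint and an mRNA library. With the block, edgeR called 5 genes and 0 members in translational efficiency, and the other calls and medians kept their side. WT and KO libraries of the same number had correlated deviations of −0.25 to 0.07 in footprints and −0.24 to 0.03 in mRNA, so numbers were not treated as pairs. Footprint and mRNA libraries of the same number gave −0.10 to 0.14, and for 7 of 8 footprint libraries the best match in the group was their own number. The translational efficiency estimates, errors and p-values printed for single genes come from fits without a block on that name, and blocked values are not given here. The median standard error was 0.20 for members in footprints and 0.10 in mRNA, and the part of footprint depth in this was not tested.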
